A study of Mus musculus with 101 samples.

Results

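Fibroblast growth factor (FGF) receptors and the genes that FGF signalling switches on were followed in mouse primordial germ cells (PGCs), the embryonic precursors of eggs and sperm. The 10 genes were chosen by symbol and looked up in the authors' table of normalized counts, where all 10 were found among 15423 genes. They are the 4 receptors Fgfr1, Fgfr2, Fgfr3 and Fgfr4, the feedback inhibitors Spry2, Spry4, Spred1 and Dusp6, and the transcription factors Etv4 and Etv5. All 10 passed the filter on low values, a mean normalized count of at least 0.5.

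The study asked whether feeding benzo[a]pyrene (BaP), a polycyclic aromatic hydrocarbon, to pregnant F0 dams altered the germ cells of later generations. RNA of PGCs was sequenced from 48 female and 53 male embryos of the OG2 strain at E13.5 (E, embryonic day), 1 library per embryo and none pooled. OG2 mice carry EGFP under the Pou5f1 promoter, and EGFP-bearing cells were enriched by flow sorting from gonads taken with the mesonephros, so some somatic cells can pass the gate. Sex was read from the shape of the gonad, and cDNA was primed with oligo(dT). F0 dams received BaP in sesame oil by mouth (a low dose of 0.033, a middle dose of 0.2 and a high dose of 2 mg/kg-day) or sesame oil alone (vehicle) from E6.5 to E11.5 for the F1 embryos and from E6.5 to E15.5 for the F2 and F3 embryos.

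The F1 female embryos numbered 5 for vehicle, 2 for 0.033 mg/kg-day, 5 for 0.2 mg/kg-day and 5 for 2 mg/kg-day. F1 males numbered 5, 2, 6 and 8 in the same order of dose. In F2 there were 6 vehicle embryos of each sex and 3 of each sex at every dose. The F3 females numbered 6, 4, 2 and 4, and the F3 males 6, 4, 4 and 3, in the same order. Generation, sex and dose thus made 24 groups.

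A value is a normalized count, the number of reads on a gene's exons scaled by the authors so that libraries of unlike depth can be compared. In 99 of the libraries the deposited values are whole multiples of a library's own step, and dividing by it gave back the reads. These libraries held 5004382 to 87240533 reads, with a median of 7789673. A set of 11 F1 libraries stood apart with 21247642 reads or more, against at most 12211582 in the others. They came from embryos of both sexes, among them vehicle, 0.2 and 2 mg/kg-day embryos: 1, 2 and 2 females and 2, 1 and 3 males. In females the median number of reads was 7 for Fgfr4, 11 for Spry4, 13 for Etv4, 15 for Spry2 and 190 for Etv5, and in males it was 5 for Fgfr3, so counting error weighs most on those with few reads.

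FGFs are secreted proteins that, with heparan sulfate as a co-receptor, pair receptor tyrosine kinases at the cell surface and start the Ras, Raf, MEK and ERK kinase cascade. ERK raises transcription of the ETS-family factors Etv4 and Etv5 and of inhibitors that damp the same cascade, so transcripts of these targets are commonly used as a readout of the pathway. In the fetal testis Sertoli cells secrete FGF9, which acts on germ cells, restrains their entry into meiosis and favours the male fate, whereas female germ cells begin meiosis at about this age under induction of Stra8.

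The labels were checked against marker genes. All 10 genes of a germ cell list were present, and their summed normalized count was 3035 to 5257 in females (median 4096) and 2726 to 6580 in males (median 4233.2), with Dppa3 the most abundant. The sums hide opposite differences: in vehicle embryos 4 of the 10 genes were higher and 5 lower in males by limma (90% passed, against 56.5% of all genes), and the mean of Dppa3 over all embryos was 1856 in females and 2644 in males. The Y-linked gene Eif2s3y was at 0 in all 48 females and at 109 to 380 in the 53 males. Ddx3y, also Y-linked, was at 0 in 45 females and at most 0.156 in the others, against 3.45 to 40.4 in males. Of the Sertoli cell list 9 of 10 genes were in the table, and their sum was 12.5 to 115 in females (median 21.5) and 38.0 to 2153 in males (median 544). Cst9 was the most abundant of them in males (mean 413) and Aard in females (mean 27.7). The Sertoli transcription factor Sox9 was at 0 in 36 of 48 females and in no male, and Amh was at 0 in 39 females and 1 male. No gene of any marker list was at 0 in every embryo of a sex. Of 9 male germ cell genes tested in vehicle embryos 7 were higher in males, 1 was lower (Piwil2, -0.40 on the log2 scale) and 1 did not pass (88.9% passed), and of 11 meiotic germ cell genes 10 were lower (90.9% passed), against the same 56.5% of all genes. The most abundant of the meiotic genes in females was Sycp3 (mean 771.5, against 204 in males).

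Male and female PGCs differed in 8 of the 10 genes. Among vehicle embryos of all generations, 17 of each sex, 6 members were higher in males (Fgfr2, Spry2, Spry4, Dusp6, Etv4, Etv5) and 2 were lower (Fgfr1, Fgfr3), by limma at an adjusted p under 0.05. The background was high, since 56.5% of the 13288 genes tested passed the same test, 3703 higher and 3799 lower in males. The median male against female difference was 0.91 on the log2(normalized count + 0.5) scale for the members and 0.00 for all genes. These p-values measure spread between embryos. In bulk RNA, fewer cells of a type and less RNA per cell cannot be told apart, and the Sertoli sum moved with sex as well: its mean was 675 in vehicle males and 22.5 in vehicle females (permutation test, two-sided, p = 2e-05, adjusted p = 0.00152 over 152 marker tests). All 8 Sertoli genes that could be tested were higher in males. The part of Sertoli RNA in the member differences was not tested. Members in the males with the fewest Sertoli transcripts are given further on.

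Fgfr3, a receptor best known for its role in cartilage and bone, showed the widest gap. ENSMUSG00000054252 lies on chromosome 5 from 33721724 to 33737068 (GRCm38.p6, plus strand). Its normalized count was 3.70 at the lowest, 6.27 at the median and 10.4 at the highest in vehicle females, against 0.127, 0.559 and 0.930 in vehicle males. No vehicle male reached any vehicle female, and the same held over all 48 females and 53 males, where the lowest female stood at 2.44 and the highest male at 2.01. Such separation of the sexes was not counted over all genes, for this or any other member. The male against female difference was -2.72 on the log2(normalized count + 0.5) scale (SE 0.17, limma adjusted p = 2.27e-27). The male was the lower in each of the 42 litters, taken as embryos whose titles share an animal code, that had both sexes. The F2 male D1064.1 at 0.2 mg/kg-day had 0 reads of Fgfr3, a count that allows up to 0.409 normalized counts (3 reads, counting error only).

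Fgfr2, whose IIIb and IIIc splice forms serve epithelium and mesenchyme, went the other way. ENSMUSG00000030849 lies on chromosome 7 from 130162451 to 130266808 (minus strand), and exon counts of a whole gene do not separate its splice forms. Vehicle females had a normalized count of 5.75 at the lowest, 7.69 at the median and 16.6 at the highest, and vehicle males had 13.3, 17.7 and 29.4. Of the 17 males 12 lay above every female, and 15 of the 17 females lay below every male. The difference was 1.08 on the log2 scale (SE 0.14, limma adjusted p = 3.03e-10), and the male was the higher in 15 of 15 vehicle litters with both sexes.

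Fgfr1, the receptor required for early mesoderm formation, was lower in males by a smaller amount. ENSMUSG00000031565 lies on chromosome 8 from 25518759 to 25575718 (plus strand). Its normalized count was 10.4, 13.0 and 20.6 (lowest, median, highest) in vehicle females and 2.99, 9.09 and 13.52 in vehicle males. The sexes overlapped, with 11 males below every female and 8 females above every male. The log2 difference was -0.58 (SE 0.14, limma adjusted p = 0.000196), and the male was the lower in 14 of 15 litters. Fgfr4, the receptor for FGF19-type hormones in liver (ENSMUSG00000005320, chromosome 13, 55152818 to 55168759, plus strand), did not pass the test. Its normalized count ran from 0.255 to 1.72 in vehicle females (median 0.833) and from 0.146 to 2.01 in vehicle males (median 1.13), with a log2 difference of 0.20 (SE 0.18, limma adjusted p = 0.336). Females and males covered almost the same range of Fgfr4.

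Of the feedback inhibitors, Dusp6 encodes a phosphatase of the cytoplasm that removes phosphate from ERK (ENSMUSG00000019960, chromosome 10, 99263231 to 99267489, plus strand). Its normalized count was 2.88, 6.27 and 14.5 (lowest, median, highest) in vehicle females and 9.44, 15.1 and 26.3 in vehicle males. Of the males 10 lay above every female, and 13 females lay below every male. Dusp6 was higher in males by 1.10 on the log2 scale (SE 0.20, limma adjusted p = 9.95e-07), in 14 of 15 litters.

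Spry4 and Spry2 encode Sprouty proteins, which block Ras activation downstream of receptor tyrosine kinases. Spry4 (ENSMUSG00000024427, chromosome 18, 38586247 to 38601347, minus strand) had normalized counts of 0.531, 1.13 and 2.82 in vehicle females and 1.41, 2.54 and 4.94 in vehicle males, again as lowest, median and highest. All males stood above the female median and 7 above every female, with a log2 difference of 0.89 (SE 0.21, limma adjusted p = 0.000134). Spry2 (ENSMUSG00000022114, chromosome 14, 105891947 to 105896819, minus strand) had normalized counts of 0.867, 1.39 and 7.39 in vehicle females and 0.983, 3.42 and 30.02 in vehicle males. The sexes overlapped widely for Spry2: 2 males lay above every female and 1 female below every male. Its log2 difference was 0.95 with the largest error of the 10 genes (SE 0.33, limma adjusted p = 0.0114), and the male was the higher in 14 of 15 litters.

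Spred1, a relative of the Sprouty proteins that brings neurofibromin to Ras, did not pass the test (ENSMUSG00000027351, chromosome 2, 117121071 to 117182279, plus strand). Its normalized count was 6.98, 10.2 and 13.3 (lowest, median, highest) in vehicle females and 6.26, 7.74 and 23.9 in vehicle males. The male range enclosed the female range, and the log2 difference was -0.18 (SE 0.12, limma adjusted p = 0.17).

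Etv5, an ETS transcription factor needed for the upkeep of spermatogonial stem cells, had the highest median per kb of exon of the 10 genes in both sexes. ENSMUSG00000013089 lies on chromosome 16 from 22381313 to 22439570 (minus strand). Its normalized count was 10.2 at the lowest, 22.9 at the median and 49.8 at the highest in vehicle females, and 33.4, 56.0 and 95.2 in vehicle males. Of the males 11 lay above every female, 13 females lay below every male, and the male was the higher in 15 of 15 litters. Etv5 was higher in males by 1.20 on the log2 scale (SE 0.17, limma adjusted p = 3.63e-09).

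Etv4, its close relative, had the same direction at a lower level (ENSMUSG00000017724, chromosome 11, 101769747 to 101785310, minus strand). Vehicle females had normalized counts of 0.564, 1.65 and 6.32 (lowest, median, highest) and vehicle males 1.69, 3.58 and 10.4. Only 3 males lay above every female, while 9 females lay below every male. The Etv4 log2 difference was 0.93 (SE 0.28, limma adjusted p = 0.0028), with the male higher in 12 of 15 litters.

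**Figure D1:**
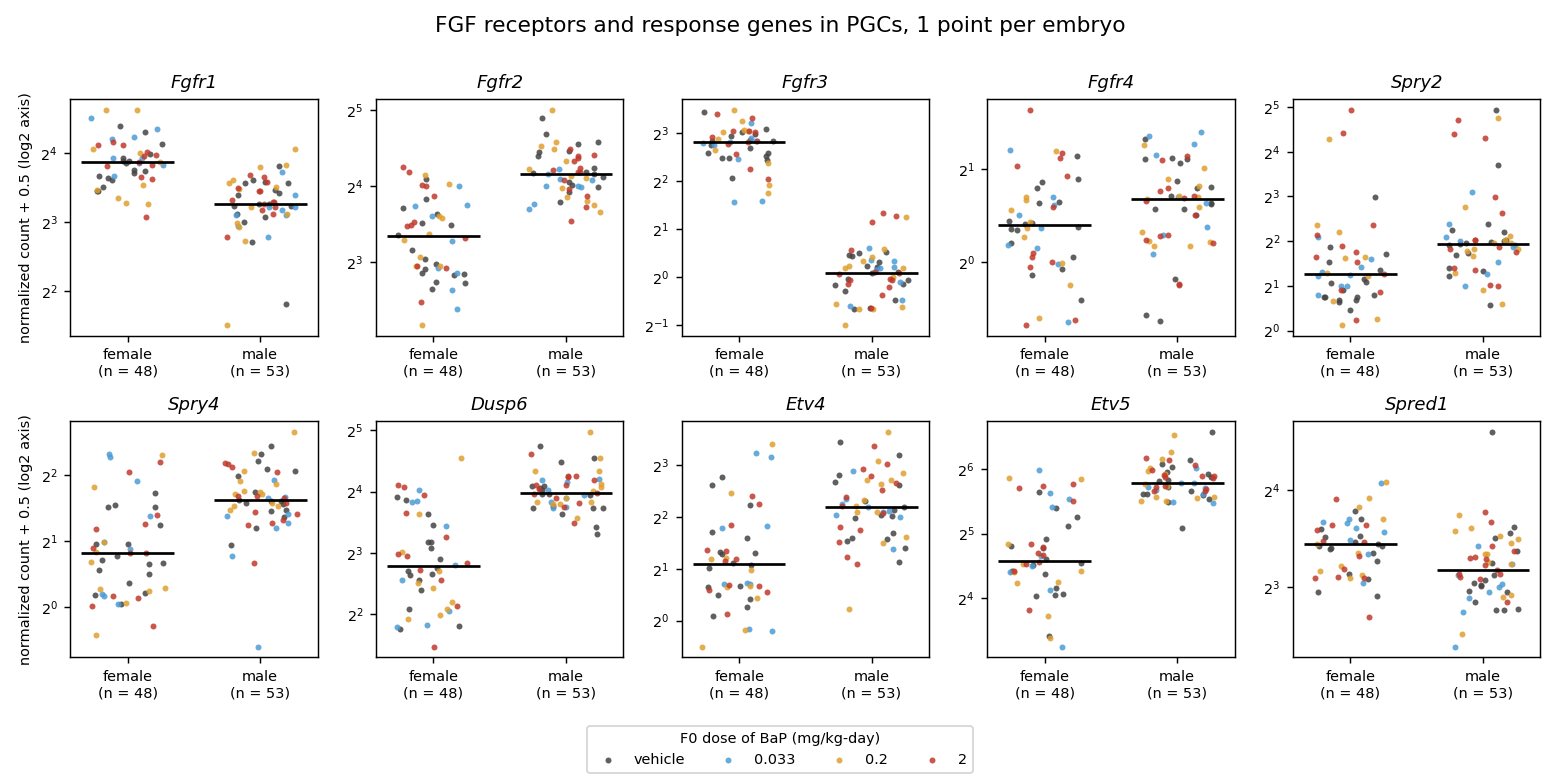
Normalized count + 0.5 on a log2 axis for each of the 10 genes, with 1 point per embryo (48 females, 53 males), the colour giving the F0 dose and the bar the median of the sex. Females and males do not overlap for Fgfr3, whereas 13 males lie above every female for Etv5 and 17 for Fgfr2.

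Embryos descended from BaP-dosed dams had sex differences of the same sign. At 0.033 mg/kg-day 6 members passed the test (42.6% of all genes), 3 higher and 3 lower in males. At 0.2 mg/kg-day 7 did (48.4% of all genes) and at 2 mg/kg-day 7 did (50.8% of all genes), 5 higher and 2 lower each time. Fgfr2, Dusp6 and Etv5 were higher and Fgfr1 and Fgfr3 lower in males at every dose, with Etv5 differences of 0.87, 1.30 and 0.96 on the log2 scale from the lowest to the highest dose (SE 0.24, 0.21 and 0.20, limma adjusted p = 0.00191, 2.27e-07 and 3.23e-05). Spred1 was lower in males at 0.033 mg/kg-day, by -0.60 (SE 0.16, limma adjusted p = 0.00132). Spry4 had a log2 difference of 0.06 there (SE 0.29, limma adjusted p = 0.881). The sex difference at a dose was compared with that in vehicle embryos directly, and 0 of 30 member tests passed in limma, with 3 at an unadjusted p under 0.05 (10%, against 3.45% over all genes), the smallest for Spry4 at 0.033 mg/kg-day (log2 -0.83, limma adjusted p = 0.723).

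The sex comparison was also made within the vehicle embryos of each generation. In F1, 6 members passed (23.8% of all genes), in F2 6 (41.1%) and in F3 5 (32.2%). Fgfr2, Fgfr3 and Etv5 passed in every generation. Median normalized counts of Fgfr3 were 6.74, 6.36 and 5.89 in F1, F2 and F3 females and 0.665, 0.428 and 0.475 in the males. For Etv5 the medians were 23.8, 22.6 and 24.05 in females and 60.5, 54.1 and 53.6 in males. Dusp6 had limma adjusted p-values of 0.000214, 0.000698 and 0.0926 in F1, F2 and F3, and Fgfr1 of 0.0498, 0.0642 and 0.00776. Whether the sex difference itself differed between generations was tested directly: 0 of 30 member tests passed in limma and 0 had an unadjusted p under 0.05 (1.72% over all genes), the smallest being 0.102 for Spry4. 

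The members were also read in the males with the fewest Sertoli transcripts. In 5 of the 53 males the Sertoli sum lay within the female range, at 74.1, 38.0, 62.9, 105 and 65.5 normalized counts, with Sox9 at 0.520, 0.631, 0.287, 1.24 and 0.246. The top of the female range, 115, came from 1 of the 11 F1 libraries that stood apart in reads. Outside those libraries the highest female sum was 67.2, below the 74.1 and 105 of these males. The first of the 5 males was the F1 vehicle male C3774.3, also among those 11 libraries. The others were D3371.2 (F2), D1390.5 and D4021.2 (F3) at 0.2 mg/kg-day and the F3 vehicle male D3523.1, in this order. Aard made up most of the female sums and reached 112 in a female. Cst9 was 18.6, 24.5, 18.1, 48.1 and 35.3 in these males against at most 1.17 in any female, so Sertoli transcripts were low in them but not at the female level. Their Etv5 was 95.2, 46.9, 60.1, 92.1 and 58.6, above 48, 40, 47, 48 and 47 of the 48 females. Their Dusp6 was 26.3, 13.7, 19.7, 22.8 and 16.5, above at least 40 of the 48 females in each case, and their Fgfr3 was 0.650, 0.631, 1.87, 0.762 and 0.737, below every female. Fgfr2 was 25.3, 13.0, 12.1, 22.0 and 17.7, above 48, 38, 35, 48 and 47 females. Spry2 was 30.02, 1.01, 3.59, 2.67 and 0.983, above 47, 4, 39, 35 and 4 females. Fgfr1 stood below every female in C3774.3 at 2.99 and within the female range in the others, at 10.7, 13.4, 13.52 and 16.1. Of the other somatic lists, summed levels were higher in vehicle males for pregranulosa genes (12.5 against 6.08, permutation test, adjusted p = 0.0418, Kitl most abundant in males, with a mean over all embryos of 5.48 against 1.37 in females), fetal Leydig genes (11.2 against 3.45, permutation test, adjusted p = 0.00304, Hsd3b1, with a mean of 3.18 against 0.515) and mesonephros epithelium genes (310 against 186, permutation test, adjusted p = 0.00152, Epcam, with a mean of 280.5 against 161). None of these lists moved as a whole: over all embryos the means of Wnt4, Irx3, Bmp2 and Fst were 0.354, 0.0785, 0.126 and 0.681 in males against 1.49, 0.869, 0.545 and 0.938 in females, those of Krt18, Pax8 and Cdh16 were 6.86, 0.525 and 0.123 against 16.4, 0.818 and 0.251, and that of the Leydig gene Insl3 was 0.782 against 1.56 (in vehicle embryos -0.55 on the log2 scale, limma adjusted p = 0.0324). Stroma (Dcn), endothelial (Pecam1), macrophage (C1qb) and erythroid (Hba-a1 in males, Hba-a2 in females) sums did not pass, with permutation test adjusted p-values of 0.905, 0.579, 0.776 and 0.62.

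To compare levels between genes, the normalized count was divided by the length of the merged exons. In vehicle females the medians per kb were 5.79 for Etv5, 2.00 for Dusp6, 1.502 for Spred1, 1.35 for Fgfr1, 0.882 for Fgfr3, 0.768 for Fgfr2, 0.665 for Spry2, 0.545 for Etv4, 0.248 for Fgfr4 and 0.241 for Spry4. The ranges of all neighbours in that order overlapped. In vehicle males the medians per kb were 14.2 for Etv5, 4.82 for Dusp6, 1.77 for Fgfr2, 1.64 for Spry2, 1.18 for Etv4, 1.14 for Spred1, 0.941 for Fgfr1, 0.541 for Spry4, 0.337 for Fgfr4 and 0.0786 for Fgfr3. Etv5 and Dusp6 did not overlap in males (8.45 to 24.1 against 3.02 to 8.38 per kb), nor did Dusp6 and Fgfr2 (up to 2.94 per kb), and all later neighbours overlapped. By these medians Fgfr1 led the receptors in females and Fgfr2 in males.

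Other genes of the pathway were counted from lists. Of 22 ligands 9 were in the table and 6 could be tested; 4 were higher in vehicle males (Fgf5 1.26, Fgf18 1.24, Fgf8 1.19 and Fgf9 0.57 on the log2 scale) and 2 lower (Fgf13 -1.17, Fgf17 -0.43), with a list median of 0.88, against 56.5% of all genes passing. Fgf9, which the Sertoli list also holds, had a limma adjusted p of 0.02. Of 5 receptors and co-receptors tested, 2 were lower (Fgfr1, Fgfr3) and 2 higher, Fgfr2 and the decoy-like receptor Fgfrl1 (0.51, SE 0.17, limma adjusted p = 0.00773). The ligands and co-receptors with no row in the table, among them Fgf2, Fgf4, Kl and Klb, were not analysed here.

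Inside the cell, 21 genes of the route from receptor to ERK were tested: 5 were higher, 7 lower and 9 did not pass, with a median of -0.15 on the log2 scale. That is 57.1% of the list, near the 56.5% of all genes. The docking protein Frs3 was higher in males (1.19, SE 0.19, limma adjusted p = 6.1e-08), as were the adaptors Shc1, Gab1 and Grb2 by less (0.47, 0.45 and 0.31, limma adjusted p = 0.00103, 0.0097 and 0.0204). The kinases Araf (-1.13, SE 0.12) and Braf (-1.09, SE 0.12) and the exchange factor Sos2 (-1.22, SE 0.16) were lower, with limma adjusted p-values of 2.06e-14, 3.36e-13 and 2.14e-10. Rps6ka3 was lower by an amount like that of Araf (-1.04, SE 0.12, limma adjusted p = 9.2e-13).

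The 14 feedback genes tested split into 6 higher, 4 lower and 4 that did not pass, with a median of 0.29 on the log2 scale. That is 71.4% of the list, against 56.5% of all genes. Besides Dusp6 and Spry4, the higher ones included the nuclear phosphatase Dusp4 (1.37, SE 0.21, limma adjusted p = 2.53e-08) and the receptor antagonist Il17rd (0.97, SE 0.10, limma adjusted p = 7.33e-14). Dusp9, an ERK phosphatase (-2.22, SE 0.14, limma adjusted p = 1.08e-27), and Flrt3 (-2.18, SE 0.25, limma adjusted p = 2.01e-12) were lower. So were the phosphatase Dusp5 and the Ras GTPase activator Rasa1 (-1.23 and -0.61, limma adjusted p = 1.13e-06 and 5.24e-05). Of 14 target transcription factors 8 were higher, 1 lower and 5 did not pass (64.3% passed, against 56.5% of all genes), with a median of 0.58. Etv1, the third member of the Etv4 and Etv5 subfamily, had the largest difference of that list (3.93, SE 0.21, limma adjusted p = 1.67e-32), and the early response genes Egr1 (1.13, SE 0.28, limma adjusted p = 0.000366) and Ier3 (0.78, SE 0.21, limma adjusted p = 0.000911) were higher, while Ets1 was lower (-0.84, SE 0.17, limma adjusted p = 1.21e-05). Of 19 heparan sulfate genes 8 were higher, 6 lower and 5 did not pass (73.7% passed, against 56.5% of all genes, median 0.17). The syndecan Sdc4 (2.73, SE 0.26, limma adjusted p = 3.63e-16), the chain polymerase Ext1 (1.58, SE 0.15, limma adjusted p = 3.62e-16), the glypican Gpc4 (1.46) and the sulfotransferase Hs6st1 (1.16) were on the higher side, and the epimerase Glce (-1.08, SE 0.14, limma adjusted p = 6.86e-11), the chain polymerase Ext2 (-0.61), the glypican Gpc6 (-1.21) and the syndecan Sdc1 (-1.12) on the lower side.

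The main exposure comparison set each dose against vehicle within sex and generation, so the doses of a sex and generation share their vehicle embryos. Each embryo was treated as independent, although the F0 dams were the animals dosed. The titles do not name the F0 dam, so F2 or F3 embryos descended from the same dam could not be recognized. Over these 18 contrasts 0 of 180 member tests passed in limma, 15 had an unadjusted p under 0.05 (8.33%, against 5.1% over all genes), and edgeR passed 0 with its quasi-likelihood test and 0 with its likelihood ratio test. Of all genes, 0.00733% passed in F1 females at 2 mg/kg-day, 0.145% in F2 males at 0.2 mg/kg-day and 0% in each of the other contrasts. The median standard error of a member was 0.33 on the log2 scale and the median half-width of its 95% interval 0.67, with standard errors from 0.19 to 1.09.

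Dusp6 had the smallest p of the 180 tests, in F1 females at 2 mg/kg-day. Its normalized counts there were 12.02, 16.6, 14.9, 9.03 and 6.66, against 2.995, 4.75, 8.57, 6.02 and 6.94 in F1 vehicle females. At 2 mg/kg-day 4 of the 5 values lay above every vehicle value and the fifth inside the vehicle range. The log2 difference was 0.96 (SE 0.27, limma adjusted p = 0.297). Etv5 in the same embryos was 51.8, 25.1, 45.1, 53.02 and 22.6, against 10.2, 16.2, 37.6, 23.8 and 34.2 in vehicle females. The groups overlapped for Etv5, with a log2 difference of 0.74 (SE 0.29, limma adjusted p = 0.434). Fgfr2 and Spry4 also had an unadjusted p under 0.05 in this contrast, with log2 differences of 0.65 and 0.67 and limma adjusted p-values of 0.474 and 0.474. Of all genes 9.89% had an unadjusted p under 0.05 there. The first 2 embryos at 2 mg/kg-day and the first vehicle embryo in these orders were deep libraries, which held the 2 highest Fgfr2 values (18.5 and 17.6) and the 2 highest Spry4 values (3.64 and 4.11) of the exposed group. Without the deep libraries the log2 differences were 0.55 for Dusp6, 0.50 for Etv5, 0.28 for Fgfr2 and 0.24 for Spry4 (SE 0.29, 0.28, 0.30 and 0.36, limma adjusted p = 0.858, 0.858, 0.874 and 0.908), and no member had an unadjusted p under 0.05 in this contrast, as 4.66% of all genes did.

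In F3 females at 0.2 mg/kg-day, a group of 2 embryos, 5 members had an unadjusted p under 0.05, as did 12.8% of all genes. Etv5 was 57.4 and 57.0 there, against 15.9 to 41.8 in the 6 F3 vehicle females (median 24.05). Both exposed embryos lay above every vehicle female, with a log2 difference of 1.27 (SE 0.42, limma adjusted p = 0.337). Fgfr1 (0.69), Fgfr2 (0.91), Spry4 (1.23) and Etv4 (1.58) were the other 4, with limma adjusted p-values of 0.337, 0.337, 0.352 and 0.357. Dusp6 was 11.9 and 23.0 in this group, against 5.42 to 14.0 in F3 vehicle females. The remaining contrasts with such members were F2 females and F3 males at 0.033 mg/kg-day with 2 each (3.39% and 3.06% of all genes), and F3 females and F2 males at 2 mg/kg-day with 1 each (15.4% and 3.71% of all genes). Spry2 had the smallest limma adjusted p of the 180 tests, 0.291. In F3 females at 2 mg/kg-day Spry2 was 3.20, 2.65, 1.37 and 4.65, against 1.10 to 1.72 in F3 vehicle females. Over the 18 contrasts the difference of a member ran from -0.80 (Spry4, F2 males at 2 mg/kg-day) to 1.58 (Etv4).

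**Figure D2:**
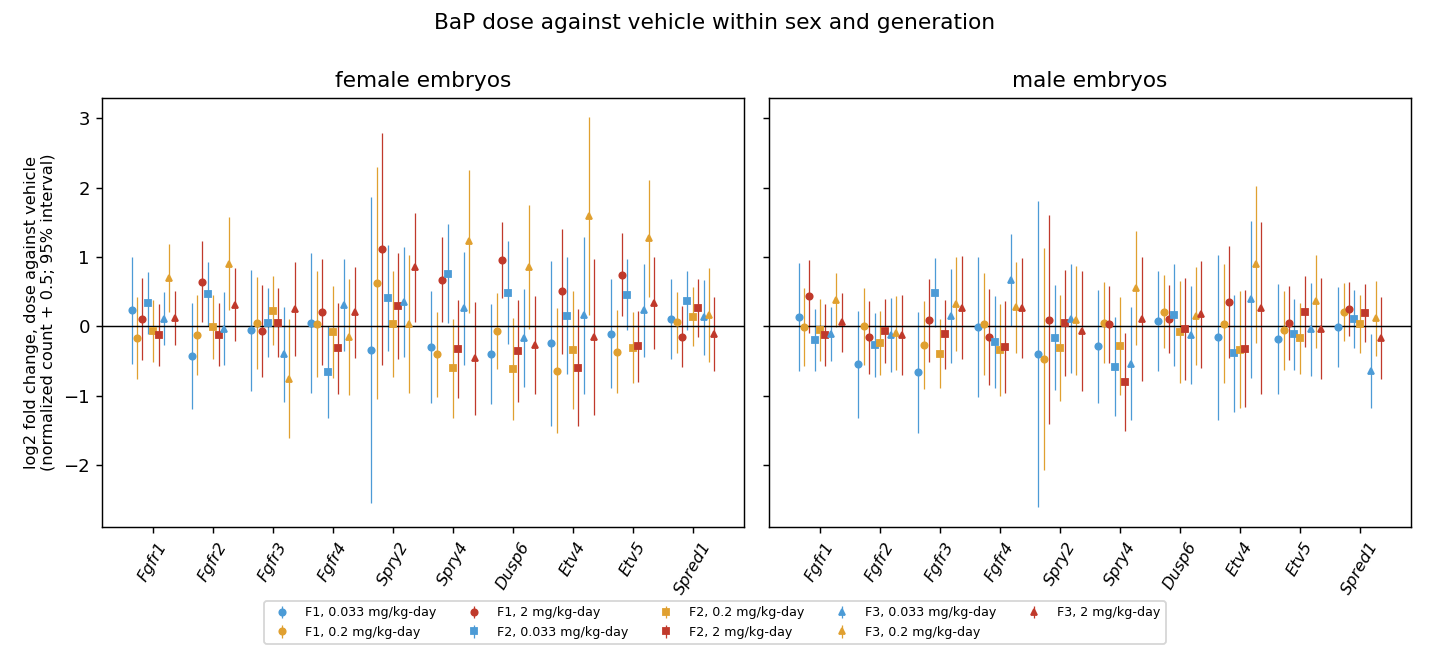
Log2 difference of each dose against vehicle on the normalized count + 0.5 scale, with its 95% interval, for the 10 genes in female and male embryos; colours give the dose and markers the generation. Most intervals cross 0, and the highest point is Etv4 at 1.58 in F3 females at 0.2 mg/kg-day.

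With generations pooled, 8 contrasts compared each dose, and the mean of the doses, with vehicle within sex. They join F1 embryos, dosed from E6.5 to E11.5, with F2 and F3 embryos of dams dosed from E6.5 to E15.5. In limma 0 of 80 member tests passed and 3 had an unadjusted p under 0.05 (3.75%, against 6.03% over all genes), and edgeR passed 0 with the quasi-likelihood test. Of all genes 1.36% passed in females at 2 mg/kg-day and 0% in the other 7 contrasts. The likelihood ratio test of edgeR passed 1 member, Spry2 in females at 2 mg/kg-day (log2 1.66, adjusted p = 0.0409), for which limma gave 0.87 (SE 0.37, adjusted p = 0.132). Spry2 normalized counts there were 0.680 to 30.1 in 12 embryos (median 2.77) against 0.867 to 7.39 in 17 vehicle females (median 1.39). Etv5 medians in females were 22.9 for vehicle and 24.6, 20.9 and 26.3 for rising dose, and in males 56.0, 51.5, 53.9 and 58.7 normalized counts. Fgfr3 medians were 6.27, 6.41, 7.19 and 6.83 in females and 0.559, 0.639, 0.631 and 0.502 in males, in the same order. None of 144 tests of a somatic marker sum at a dose against vehicle passed, 12 had an unadjusted p under 0.05, and the lowest adjusted p was 0.201 (permutation tests). Groups were small, with as few as 21 arrangements of the embryos, so most of these tests could hardly pass after adjustment. The stroma sum in F1 females had a mean of 7.95 at 0.2 and 7.63 at 2 mg/kg-day, against 2.98 in vehicle (permutation p = 0.00794 each). Every exposed embryo lay above every vehicle embryo there, and sums lower than vehicle were also among the 12.

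Vehicle embryos of the generations were compared with each other within sex in 6 contrasts. In limma 0 of 60 member tests passed, 6 had an unadjusted p under 0.05 (10%, against 3.18% over all genes), and edgeR passed 0 with either test. Of all genes 0% passed in each of these contrasts. The smallest p was that of Fgfr1 between F1 and F2 males (0.54 on the log2 scale, limma adjusted p = 0.879), where the median normalized count was 8.86 in F1 and 11.4 in F2. The F1 males at 2.99 and 6.04, the lowest of the 5, were both deep libraries, and without the deep libraries the difference was 0.12 (limma adjusted p = 1).

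The 11 deep F1 libraries came from 6 animal codes that held no other library, so depth and litter cannot be told apart. Spry2 stood apart in these libraries. Its normalized count was 4.64 to 30.1 in the 5 deep female libraries (median 19.0) and 0.680 to 4.11 in the other 12 F1 females (median 1.77). In males it was 4.75 to 30.02 in 6 deep libraries (median 23.0) and 1.38 to 8.06 in the other 15 (median 3.13). No other F1 female reached the deep libraries, whereas the males overlapped. F2 and F3 medians were 1.82 in females and 3.20 in males. Fgfr4 had lower medians in the deep libraries, 0.255 against 0.848 in the other F1 females and 0.503 against 1.11 in the other F1 males. Etv4 medians were 0.701 against 1.34 in F1 females and 2.85 against 4.50 in F1 males, Fgfr1 medians 9.17 against 13.6 in females and 6.20 against 8.86 in males, and Etv5 medians 12.7 against 24.2 in females and 52.7 against 58.0 in males. Spred1 medians were higher in the deep libraries, at 12.5 against 9.38 in females and 10.8 against 8.26 in males. So were those of Fgfr3, at 7.81 against 6.77 in females and 0.799 against 0.557 in males. The 2 mg/kg-day F1 females held 2 of the deep libraries and the vehicle F1 females 1, and without all 11 deep libraries the likelihood ratio test no longer passed Spry2 in females at 2 mg/kg-day (log2 0.58, adjusted p = 0.294). The limma difference of Spry2 in that contrast was 0.45 without them (adjusted p = 0.267). The sex difference of Spry2 in vehicle embryos was 0.85 without them (limma adjusted p = 0.000264).

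Among female embryos 8 of the 10 members varied with Stra8, the gene that marks entry into meiosis: Etv5, Etv4, Dusp6, Fgfr2, Spry4, Fgfr1 and Fgfr4 ran against it and Fgfr3 with it. Many genes did so. Of 13276 genes other than Stra8, members included, 50.4% passed over the 48 females by Pearson r (3424 with Stra8 and 3261 against it) and 52% by Spearman rho (t approximation, adjusted p under 0.05 over these genes), so passing alone sets no member apart. By this test 8 members passed by r and 8 by rho, where Spred1 did and Fgfr4 did not (adjusted p = 0.0433 by r and 0.0519 by rho for Fgfr4, 0.106 and 0.045 for Spred1). In the 43 females outside the deep libraries 8 passed by r (51.5% of genes) and 7 by rho (50.3%), with Spred1 at rho = 0.23 (t approximation, adjusted p = 0.205). By r, 4 members passed within F1 (12.9% of genes), 7 in F2 (22.3%), 7 in F3 (32.4%) and 7 in vehicle females (22.3%). By rho these were 5 (16.5%), 5 (14.7%), 7 (32%) and 7 (21.1%). The median size of r was 0.71 for the members and 0.33 for all genes. An r at least as far from 0 was found in 0.746% of genes for Etv5, 2.6% for Etv4, 2.79% for Dusp6, 6.29% for Fgfr2, 7.98% for Fgfr3, 9.35% for Spry4, 15.1% for Fgfr1, 49.1% for Fgfr4, 57.2% for Spred1 and 78.1% for Spry2. Stra8 was chosen after the values had been seen. It ranged from 9.12 to 882 normalized counts in the 48 females (median 397), each from a litter of its own. For Etv5 against Stra8, both as log2(normalized count + 0.5), Pearson r was -0.86 and Spearman rho -0.91 (permutation p = 1e-05 each, the smallest that 100000 permutations can give; adjusted p = 2.86e-05 and 3.75e-05 over 60 relations). Without the 2 embryos farthest from the median of Stra8, r was -0.87. Within generations r was -0.87 in 17 F1, -0.93 in 15 F2 and -0.91 in 16 F3 females, in the 17 vehicle females -0.88, and in the 43 females outside the deep libraries -0.88.

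Dusp6 had r = -0.81 and rho = -0.85 with Stra8 over the 48 females, and -0.86, -0.94 and -0.80 as r within F1, F2 and F3. Its permutation p over the 48 was 1e-05 for both measures (adjusted p = 2.86e-05 and 3.75e-05), and r was -0.83 without the 2 farthest embryos. Fgfr2 had r = -0.74 and rho = -0.84 with the same permutation and adjusted p-values, with r = -0.79 without the 2 farthest and -0.83, -0.88 and -0.78 within F1, F2 and F3. Fgfr3 went with Stra8 instead, at r = 0.72 and rho = 0.63 (permutation p = 1e-05 each, adjusted p = 2.86e-05 and 3.75e-05), with r = 0.66 without the 2 farthest. Within F1 its r was 0.42 (permutation p = 0.0948, adjusted p = 0.118), against 0.73 in F2 and 0.79 in F3, so the relation did not pass within F1. In the 17 vehicle females Fgfr3 had r = 0.54 and rho = 0.65 (permutation p = 0.0285 and 0.00535, adjusted p = 0.0397 and 0.00846). Adjusted over all genes, that r did not pass (t approximation, adjusted p = 0.0868).

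Etv4, Spry4 and Fgfr1 also ran against Stra8, at r = -0.81, -0.70 and -0.63 and rho = -0.77, -0.66 and -0.62 over the 48 females (permutation p at most 2e-05, adjusted p at most 6.67e-05), and at -0.80, -0.79 and -0.64 without the 2 farthest. In the 17 vehicle females Etv4 had r = -0.68 (permutation p = 0.00308, adjusted p = 0.00486) and rho = -0.71 (permutation p = 0.00219, adjusted p = 0.00398), and without the 2 farthest r was -0.28 and rho -0.575. Fgfr1 had r = -0.42 within F1 (permutation p = 0.0906, adjusted p = 0.116), -0.81 in F2 and -0.76 in F3. In F2 the Fgfr1 rho was -0.47 (permutation p = 0.0783, adjusted p = 0.0987), and without the 2 farthest embryos r was -0.46 and rho -0.19. Spry4 in F2 had r = -0.70 (permutation p = 0.00382, adjusted p = 0.00588) and rho = -0.60 (permutation p = 0.0218, adjusted p = 0.0326), and -0.37 and -0.38 without the 2 farthest. Adjusted over all genes, Spry4 in F2 passed by r but not by rho (t approximation, adjusted p = 0.0248 and 0.0903). Etv4 within F1 had r = -0.61 and rho = -0.66, and over all genes it passed by rho only (t approximation, adjusted p = 0.0641 and 0.0303). Spry2 and Spred1 showed r = -0.13 and 0.27 and rho = -0.14 and 0.33 (permutation p = 0.366 and 0.0624 for r, adjusted p = 0.385 and 0.0832; permutation p = 0.337 and 0.0245 for rho, adjusted p = 0.375 and 0.0359), and Fgfr4 r = -0.33 and rho = -0.32 (permutation p = 0.0212 and 0.0289, adjusted p = 0.031 and 0.0413). In vehicle females Fgfr4 had r = -0.67 and rho = -0.59 (permutation p = 0.00278 and 0.015, adjusted p = 0.00451 and 0.0232), and -0.44 and -0.40 without the 2 farthest, and within F1, F2 and F3 its r was -0.38, -0.07 and -0.50 (adjusted p = 0.167, 0.809 and 0.0684). The F3 females at 0.2 mg/kg-day had Stra8 of 40.7 and 35.7, against 62.9 to 620 in F3 vehicle females. In F1 females Stra8 was 63.7, 153, 71.2, 112 and 334 at 2 mg/kg-day and 743, 617, 112, 450 and 313 in vehicle, in the order of the values of Dusp6 and Etv5 above. The part of this variation in the differences by dose was not tested.

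**Figure D3:**
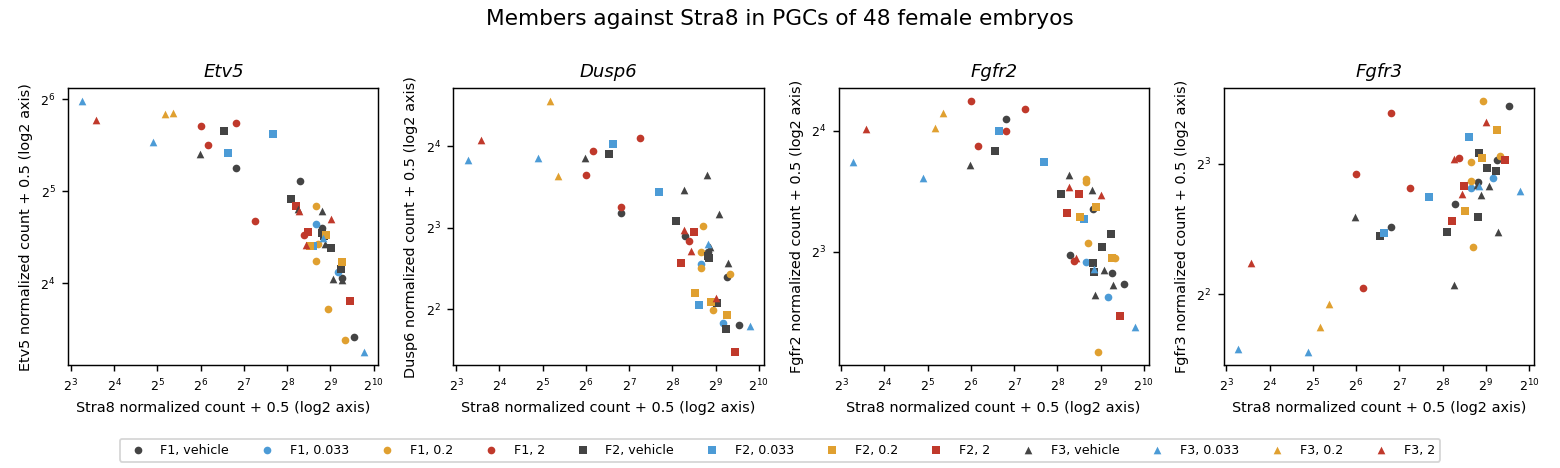
Etv5, Dusp6, Fgfr2 and Fgfr3 against Stra8 in the 48 female embryos, as normalized count + 0.5 on log2 axes, with colours for the F0 dose and markers for the generation. Pearson r is -0.86, -0.81, -0.74 and 0.72 in that order.

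The likeness of each member to other genes was measured over all embryos of both sexes as Pearson r of log2(normalized count + 0.5) after the mean of each of the 24 groups was subtracted, among 8485 genes, as a description with no test. Etv5 was most like L1td1 (0.90), Akap12 (0.86) and Ywhag (0.82). Dusp6 was most like Vdac1 (0.76), Etv5 itself (0.75) and Rras2 (0.75), and Fgfr2 like Rras2 (0.68), Akap12 (0.67) and Rnf125 (0.66). Etv4 had Pvrl2 (0.77), Bysl (0.75) and Tgif2 (0.75), and Spry4 had Ntrk2 (0.56), Ptbp1 (0.56) and Sfn (0.55). Spry2 was closest to Cbx3 (0.93), Slc24a5 (0.92) and Myef2 (0.91), and in the 90 embryos outside the deep libraries, a check chosen after the values had been seen, these were 0.80, 0.80 and 0.77. Spred1 was closest to Otud4 (0.73), Esco1 (0.73) and Smarca5 (0.73). Of the other receptors, Fgfr1 was closest to Mlec (0.69), Pus7 (0.67) and Mtmr4 (0.67), at 0.64, 0.59 and 0.48 outside the deep libraries, Fgfr3 to Adarb1 (0.57), 6330503K22Rik (0.56) and Pparg (0.55), at 0.53, 0.58 and 0.51, and Fgfr4 to Zmynd8 (0.69), Urgcp (0.67) and Aldh16a1 (0.67), at 0.54, 0.51 and 0.52. Between members the highest values were 0.75 for Dusp6 with Etv5, 0.65 for Fgfr2 with Etv5, 0.63 for Etv4 with Etv5 and 0.61 for Fgfr2 with Dusp6.

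Since Dusp6, Etv5 and Fgfr2 varied together, their promoters are shown, with that of Fgfr3 for contrast, from RefSeq on GRCm38.p6 (250 bases before to 50 after the start). Searched were 9 promoters of 7 members, all but Fgfr1, Etv4 and Spry4. The letters CGGAAG and AGGAAG, core letters bound by ETS-family factors, were searched on both strands and are in capitals, as CTTCCG and CTTCCT where they lie on the other strand. CGGAAG occurs in 16.9% and AGGAAG in 35.4% of all 32851 promoters of this length, and 46.5% hold either. Of the 9 member promoters 5 held a match: Fgfr2 2, Fgfr4 1, Dusp6 2, Spred1 2 and 1 of the Etv5 starts 1. A match is a description of the sequence only. The Dusp6 promoter is chr10:99262981-99263280 (plus strand), those of the Etv5 starts are chr16:22438319-22438618 with a match and chr16:22439521-22439820 with none (minus strand), that of Fgfr2 is chr7:130266759-130267058 (minus strand), and that of Fgfr3 shown is chr5:33721474-33721773 (plus strand). Neither Fgfr3 start, chr5:33722056-33722355 being the other, has a match.
Dusp6: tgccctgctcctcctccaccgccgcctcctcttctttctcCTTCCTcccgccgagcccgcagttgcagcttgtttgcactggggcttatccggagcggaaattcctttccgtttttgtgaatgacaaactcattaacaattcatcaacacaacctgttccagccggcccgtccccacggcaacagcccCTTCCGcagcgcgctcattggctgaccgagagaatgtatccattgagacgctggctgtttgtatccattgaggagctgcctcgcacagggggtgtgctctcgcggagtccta
Etv5, start with a match: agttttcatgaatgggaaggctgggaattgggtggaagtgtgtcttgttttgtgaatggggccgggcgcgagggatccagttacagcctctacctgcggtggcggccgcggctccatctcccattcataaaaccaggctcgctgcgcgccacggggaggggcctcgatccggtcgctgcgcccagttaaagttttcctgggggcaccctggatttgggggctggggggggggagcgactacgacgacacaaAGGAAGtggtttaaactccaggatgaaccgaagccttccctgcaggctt
Etv5, start with no match: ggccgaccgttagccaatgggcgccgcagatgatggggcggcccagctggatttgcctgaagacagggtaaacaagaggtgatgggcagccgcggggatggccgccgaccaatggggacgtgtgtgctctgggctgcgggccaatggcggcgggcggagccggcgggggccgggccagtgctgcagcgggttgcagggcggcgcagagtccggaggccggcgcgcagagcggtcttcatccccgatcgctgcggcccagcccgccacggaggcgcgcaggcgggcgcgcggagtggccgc
Fgfr2: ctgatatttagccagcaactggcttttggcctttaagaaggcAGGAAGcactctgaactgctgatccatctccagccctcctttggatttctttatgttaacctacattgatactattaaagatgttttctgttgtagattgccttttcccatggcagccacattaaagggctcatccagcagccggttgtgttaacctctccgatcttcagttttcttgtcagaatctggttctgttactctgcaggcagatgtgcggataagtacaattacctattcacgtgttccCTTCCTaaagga
Fgfr3: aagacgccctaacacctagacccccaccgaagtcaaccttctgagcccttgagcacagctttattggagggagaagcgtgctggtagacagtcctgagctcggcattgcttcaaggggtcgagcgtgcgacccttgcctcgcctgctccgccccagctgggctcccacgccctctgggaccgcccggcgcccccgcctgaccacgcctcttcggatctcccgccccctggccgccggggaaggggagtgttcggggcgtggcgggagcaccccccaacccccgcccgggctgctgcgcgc

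In the gene annotation, exons of Fgfr1 share 164 bases (1.70% of its exon bases) with Gm16159 and exons of Fgfr3 share 948 bases (13.3%) with G630022F23Rik, each on the opposite strand. Neither partner has a row in the table. The strand of counting was not stated, so reads of Fgfr3 and of its partner cannot be told apart over those bases.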

How the data were processed

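The deposited table gives 1 signal per gene and embryo, which the authors made by trimming reads with Trim Galore, aligning them to GRCm38/mm10 with STAR, counting them on exons with Rsubread and normalizing them with the TMM method of edgeR (versions not stated). In 99 columns 100% of the 1423762 nonzero values lay within 0.05 of a whole number of reads once divided by the column's step; the other 2 columns were left out of edgeR only. Depth was 5004382 to 87240533 recovered reads.

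Tests ran over all genes with a mean of at least 0.5, in limma 3.58.1 (empirical Bayes, mean-variance trend, R 4.3.3) on log2(normalized count + 0.5), with Benjamini-Hochberg adjustment within each comparison and a call at an adjusted p under 0.05. No term for litter, F0 dam or generation was used, and the F0 dam of an embryo is not named in its title. Recovered reads were tested with edgeR 4.0.16 (quasi-likelihood and likelihood ratio tests). The fits were also run on simulated data, but the outcome is not given here and supports no value above. Marker sums were compared by two-sided permutation tests, exact below 10 embryos a group and otherwise with 100000 resamples (Python 3.11.15, scipy 1.17.1). Correlations used the same number of permutations. Lengths and overlaps came from GENCODE M21, positions and promoters from RefSeq.

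The members and gene lists were chosen with earlier results of these data known. All 10 members were named, up to 4 genes per pathway list and direction with the smallest p, the 3 genes most like each member, and the most abundant gene of each marker list but that of male germ cells. Alternatives changed the pseudocount (0.1, 1), the filter (none, a mean of 5), the test, the scaling (upper quartile), the litter and generation terms, the embryos in the fit and the deep libraries.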

Additional observations from a re-analysis of the deposited data

Results flagged for a closer look

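In groups of 4 to 10 embryos, the highest or lowest value was marked where its gap to the nearest other embryo took an unusually large part of the group's range. This marked 8 of 140 member and group pairs (5.71%), and chance marks about 1 in 20. Fgfr2 in the F1 female D2587.1 at 2 mg/kg-day was 7.07 normalized counts, below the 14.1 to 18.5 of the 4 others. In the F3 vehicle male D3402.3 Fgfr2 was 29.4, above the 15.4 to 17.7 of the 5 others. Fgfr1 in the F1 male C4228.1 at 0.2 mg/kg-day was 2.34, below the 7.10 to 11.3 of the 5 others, and this library is among the deep ones. Spry4 in the F1 male D1190.1 at 0.2 mg/kg-day was 5.83, above 2.39 to 3.16 in the 5 others. Spry2 in the F1 vehicle male C3774.3, a deep library too, was 30.02, above 3.46 to 4.75 in the 4 others. Spred1 was low in 3 embryos: 5.19 in the F1 male D2506.3 at 0.2 mg/kg-day (8.95 to 10.8 in the 5 others), 6.98 in the F2 vehicle female D2996.1 (9.68 to 11.03 in the 5 others) and 7.74 in the F3 female D3744.1 at 0.033 mg/kg-day (11.4 to 12.2 in the 3 others). No member passed a test of the difference between sexes or generations in its response to a dose or in its sex difference: in limma 0 of 240 such tests passed, 21 had an unadjusted p under 0.05, and the smallest adjusted p was 0.14. These were 18 of 180 tests of generation and dose (10%, against 4.39% over all genes), 3 of 30 of sex and dose (10%, against 3.45%) and 0 of 30 of sex and generation (against 1.72%). F1 differed from F2 and F3 in the dosing window as well, so generation and window cannot be told apart between them.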

How the results depend on the processing

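For each of the 10 genes the male against female difference in vehicle embryos kept its sign and its side of the threshold under the 10 or 11 alternatives in which it was refitted over all generations, 105 values in all: from -3.45 to -2.24 on the log2 scale for Fgfr3, 1.11 to 1.23 for Etv5, 0.98 to 1.15 for Dusp6 and 0.82 to 1.37 for Spry2, whose adjusted p reached at most 0.0158. Of the members 4 passed with a minimum mean of 5, which leaves 5 of them to test (not Fgfr3, Fgfr4, Spry2, Spry4 or Etv4), and 5 passed in F3 alone, with fewer embryos. Of all genes, 4758 passed that comparison with a minimum mean of 5, which tests 8485 genes. Members passing in the 8 pooled dose contrasts numbered 1 with the edgeR likelihood ratio test, 0 with that test without the deep libraries (chosen after seeing the data), and 0 otherwise. Over the 18 dose contrasts and over the 6 generation contrasts no member passed under any alternative, and leaving out 1 embryo at a time in the groups of at most 6 (93 refits, so not the 8 F1 males at 2 mg/kg-day) gave 0 to 0; where this left 1 embryo in a group, that embryo was assumed to vary like the other groups. The number of all genes passing over the 18 contrasts, 20 here, was 12 without a filter, 12 with a minimum mean of 5, 11 with the quasi-likelihood and 192 with the likelihood ratio test; the cause was not tested. It was 1 when D1064.1, D3371.2, C4992.2, D2996.2 or D3001.1 was left out, each by itself, 13 without D3620.3, 44 without D2587.1, 58 without D4028.3, 60 without D1669.1, 84 without D3523.1, 134 without C4988.2, 192 without D1464.2 and 244 without D1040.1. Embryos whose titles share an animal code were more alike than others: the median r over 2000 genes was 0.27 for 43 brother and sister pairs and -0.00 for other pairs, with a consensus correlation of 0.26, and with this code as a random block 8 members passed by sex and 0 by dose. Some dose groups held 2 or 3 embryos, and Fgfr4 had at most 21 reads in any embryo.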
